A study of Mus musculus with 18 samples.

Results

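The 10 genes described here carry out antigen presentation by the major histocompatibility complex (MHC) class I pathway, and they were named for their role in it, with earlier results of these data known: H2-K1, H2-D1, B2m, Tap1, Tap2, Tapbp, Psmb8, Psmb9, Psmb10 and Nlrc5. All 10 were found by symbol among the 35734 genes of the comparison that the authors deposited, and all 10 were among the 16757 genes with an adjusted p. The comparison was made in mouse embryonic fibroblasts (MEFs, connective tissue cells grown from embryos) of the line R26-M2rtTA and the strain C57BL/6. Every culture carried doxycycline-inducible lentiviral vectors that express Brn2 and Myt1l, neuronal transcription factors used to turn fibroblasts towards neurons, and had 48 h of doxycycline. The group with Ikzf1/4 carried vectors for Ikzf1 and Ikzf4, zinc finger factors of the Ikaros family, in addition. There were 3 RNA-seq libraries in each of the 2 groups, and none without Brn2 and Myt1l is compared here, so each difference is between cultures with both pairs of factors and cultures with Brn2 and Myt1l alone. The labels do not say whether replicates were separate cultures, so p-values measure the spread between these libraries.

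The pathway shows every nucleated cell's own proteins to CD8 T cells. Proteins are cut by the proteasome, whose catalytic subunits are exchanged under interferon for Psmb8, Psmb9 and Psmb10 (the immunoproteasome). Peptides are pumped into the endoplasmic reticulum by Tap1 and Tap2, loaded with the help of tapasin (Tapbp) onto a heavy chain (H2-K1 or H2-D1, the classical class I genes of this strain) that is paired with beta-2-microglobulin (B2m), and carried to the surface. Nlrc5 is the transactivator of class I genes. It acts through a complex with Rfx factors on the X and Y boxes of their promoters, beside sites for interferon regulatory factors and NF-kB. Fibroblasts express the pathway at rest and raise it under interferon.

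The promoter sequences of the members are shown because these boxes are where that regulation is known to act. RefSeq promoters (build GRCm38.p6) were found for 8 of the 10 members, and those of Tap2 and Nlrc5 were not used here. The 200 bases before each start site are printed 5′ to 3′ on the gene's strand, with the words found on either strand in capitals.
H2-K1 (chr17:34000348-34000547, minus strand): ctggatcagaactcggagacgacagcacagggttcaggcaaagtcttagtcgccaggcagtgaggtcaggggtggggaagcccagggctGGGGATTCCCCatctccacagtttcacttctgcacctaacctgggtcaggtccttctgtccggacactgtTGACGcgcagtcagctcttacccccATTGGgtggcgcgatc
H2-D1 (chr17:35262894-35263093, plus strand): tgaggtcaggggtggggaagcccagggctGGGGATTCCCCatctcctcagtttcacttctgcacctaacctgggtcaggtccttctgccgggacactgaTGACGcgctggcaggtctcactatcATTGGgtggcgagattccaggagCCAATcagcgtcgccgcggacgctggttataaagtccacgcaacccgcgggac
B2m (chr2:122147487-122147686, plus strand): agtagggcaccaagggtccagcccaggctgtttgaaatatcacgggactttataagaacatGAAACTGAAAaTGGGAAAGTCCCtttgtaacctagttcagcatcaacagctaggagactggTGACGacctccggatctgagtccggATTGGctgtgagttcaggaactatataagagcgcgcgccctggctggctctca
Tap1 (chr17:34187356-34187555, plus strand): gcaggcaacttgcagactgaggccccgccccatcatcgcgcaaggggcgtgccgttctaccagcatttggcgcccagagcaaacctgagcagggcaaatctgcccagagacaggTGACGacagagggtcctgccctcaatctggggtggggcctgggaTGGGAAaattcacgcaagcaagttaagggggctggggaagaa
Tapbp (chr17:33919278-33919477, plus strand): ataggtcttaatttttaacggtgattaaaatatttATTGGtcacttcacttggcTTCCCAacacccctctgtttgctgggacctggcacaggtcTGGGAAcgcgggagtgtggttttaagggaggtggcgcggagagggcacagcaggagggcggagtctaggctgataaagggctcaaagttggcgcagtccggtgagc
Psmb9 (chr17:34187331-34187530, minus strand): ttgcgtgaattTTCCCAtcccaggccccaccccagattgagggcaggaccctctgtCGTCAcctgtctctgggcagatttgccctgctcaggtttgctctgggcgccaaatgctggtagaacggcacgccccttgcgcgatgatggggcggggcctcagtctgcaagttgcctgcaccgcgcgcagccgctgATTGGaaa
Psmb8 (chr17:34197995-34198194, plus strand): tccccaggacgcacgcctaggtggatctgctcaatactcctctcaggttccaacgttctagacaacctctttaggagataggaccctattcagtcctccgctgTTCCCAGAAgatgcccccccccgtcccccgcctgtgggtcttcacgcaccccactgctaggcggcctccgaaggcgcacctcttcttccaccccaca
Psmb10 (chr8:105938393-105938592, minus strand): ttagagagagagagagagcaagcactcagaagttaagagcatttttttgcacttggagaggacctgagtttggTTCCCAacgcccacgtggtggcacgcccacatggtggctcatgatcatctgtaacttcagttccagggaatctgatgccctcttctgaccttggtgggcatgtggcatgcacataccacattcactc

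Psmb9 starts 226 bp from Tap1 on the opposite strand, so their stretches overlap, read from opposite strands. The H2-K1 and H2-D1 stretches aligned over 139 bases, of which 127 (91.4%) were identical. The kappa B form (GGGA-NNNN-CC, N being any base) was found in H2-K1, H2-D1 and B2m and in 14.7% of the 27025 promoters searched over the same length. The core word of the X2 box (TGACG) was found in 5 of the 8 (H2-K1, H2-D1, B2m, Tap1 and Psmb9), against 15.8% of all promoters. The core of the Y box (CCAAT) was also found in 5, the heavy chains, B2m, Tapbp and Psmb9, against 30.0%. In H2-K1 the X2 and Y words lay 41 to 37 and 16 to 12 bases before the start. In B2m they lay at 78 to 74 and 53 to 49. In H2-D1 they lay at 101 to 97 and 76 to 72, with another Y word at 53 to 49. In Psmb9 they lay farther apart, at 144 to 140 and 8 to 4, and Tapbp held no X2 word. A strict word of the interferon-stimulated response element (GAAA-NN-GAAA) was found in B2m, against 2.33%. Looser forms of this element were not searched, and both heavy chain stretches hold TTTCACTTC, a near form that the strict word misses. A word of the gamma-activated site (TTCNNNGAA) was found in Psmb8, against 5.62%. A core word of Ikaros sites (TGGGAA) was found in 6 of the 8 (B2m, Tap1, Tapbp, Psmb8, Psmb9 and Psmb10), against 17.3%. Whether the start site used for Psmb10 is the one in use was not checked, so its stretch may not be the working promoter. Repeat sequence was not looked for in any stretch. For both the X2 word and the Ikaros word, the matches in Tap1 and Psmb9 are the same bases, so 1 match is counted for both genes. The Ikaros word overlapped the kappa B form in B2m and the gamma-activated site in Psmb8. The 2 without the full Ikaros word were the heavy chains, though both of their stretches hold GGGAA, the word without its first letter. These are matches of letters, not measured sites, and the absence of a word does not show the absence of a site.

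Depth was 34966344 to 44270426 estimated reads per RNA-seq library. Log2 CPM of transcripts correlated at 0.9659 to 0.9711 (Pearson's r across transcripts) within groups and 0.9545 to 0.9607 between them. The added factors had log2 fold changes of 8.54 for Ikzf4 (SE 0.15) and 7.76 for Ikzf1 (SE 0.17) in the authors' deposited table, in the direction of the labels. Of the factors that both groups carry, Myt1l was called higher with Ikzf1/4 (0.50, SE 0.17, DESeq2 adjusted p 0.0157) and Brn2 (gene Pou3f2) did not pass (-0.05, SE 0.08, DESeq2 adjusted p 0.689) per the authors' deposited table. The part of the Myt1l difference in the members' values was not tested. The sources used here do not pair the transcripts of single libraries with genes, so members are given as the authors' mean normalised count over the 6 libraries, the log2 fold change (with Ikzf1/4 over without), its SE and an approximate 95% interval from that SE. Mean counts depend on transcript length and are not compared between genes. The fold changes may have been shrunk towards 0 by the authors, most for low genes.

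With Ikzf1 and Ikzf4 added, the immunoproteasome subunits Psmb10 and Psmb8 fell and tapasin rose, while neither classical heavy chain passed the test. In the authors' deposited table, 2 of the 10 members were called lower (Psmb10 and Psmb8), 1 was called higher (Tapbp) and 7 did not pass an adjusted p of 0.05. Of all tested genes in the authors' deposited table, 30.6% were called, 15.4% lower and 15.3% higher, so the members' 3 calls in 10 are about the share of all genes. Counts of calls in the other gene lists below are to be read against the same shares. Their median log2 fold change was 0.03 in the authors' deposited table, against -0.0004 for all tested genes. The plot of log2 fold changes by member shows Psmb10 alone outside the central 95% of tested genes (-0.70 to 0.74).

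**Figure D1:**
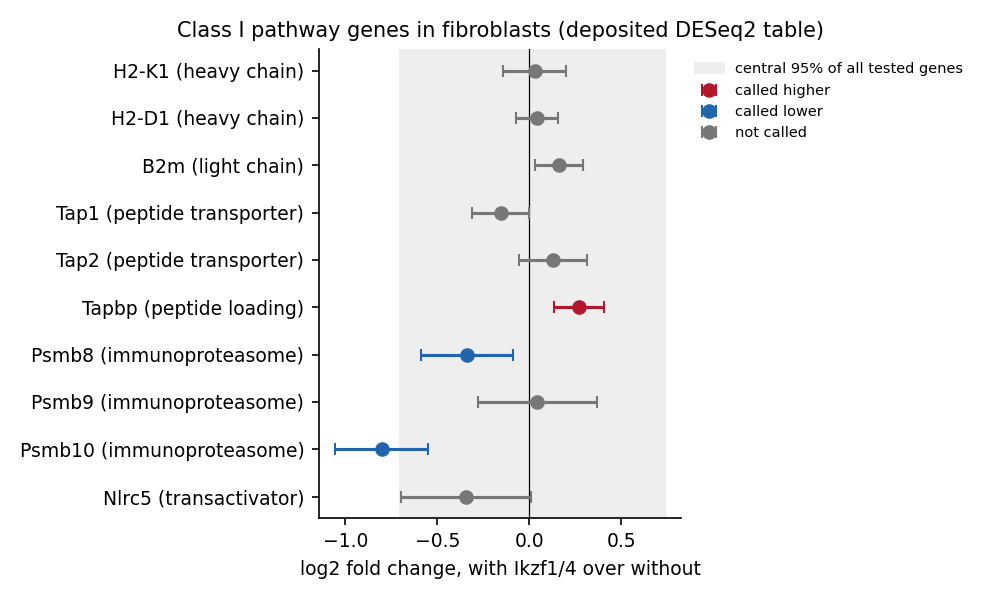
Log2 fold change (x axis, with Ikzf1/4 over without) of each member in the authors' deposited table, with its approximate 95% interval, and the central 95% of all tested genes in grey. Psmb10 (-0.80) and Psmb8 (-0.34) are called lower, Tapbp (0.27) is called higher, and both heavy chains lie near 0.

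Of the genes that make the surface complex, neither heavy chain passed the threshold. In the authors' deposited table H2-K1 had a mean of 3505 normalised counts and a log2 fold change of 0.03 (SE 0.09, interval -0.14 to 0.20, DESeq2 adjusted p 0.852). H2-D1 had a mean of 9806 in the authors' deposited table and a log2 fold change of 0.04 (SE 0.06, interval -0.07 to 0.15, DESeq2 adjusted p 0.676). As linear ratios, both intervals lie within 0.906 to 1.15. Both genes have near-identical copies among the class I genes, and the share of reads each gets from the authors' counting is uncertain. B2m, the light chain of every class I molecule, missed the threshold by little, with a mean of 30495 and a log2 fold change of 0.16 (SE 0.07, interval 0.03 to 0.29, DESeq2 adjusted p 0.0514) per the authors' deposited table. It passed when the adjustment was made over genes with a mean of at least 50 only (adjusted p 0.0427).

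The chains of the peptide transporter had estimates of opposite sign, and neither passed. Tap1 had a mean of 2445 and a log2 fold change of -0.16 (SE 0.08, interval -0.31 to -0.0004, DESeq2 adjusted p 0.129) per the authors' deposited table. For Tap2 the authors' deposited table gives a mean of 1553 and 0.13 (SE 0.09, interval -0.05 to 0.31, DESeq2 adjusted p 0.327). Tapasin, which bridges the transporter and the empty heavy chain, was higher. Tapbp had a mean of 7130 in the authors' deposited table and a log2 fold change of 0.27 (SE 0.07, interval 0.14 to 0.40, DESeq2 adjusted p 0.000513). That is a linear ratio of 1.21 (1.10 to 1.32).

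Of the 3 immunoproteasome subunits, 2 were called lower. Psmb10, which takes the place of Psmb7, had the largest difference of the 10, with a mean of 347.1 normalised counts and a log2 fold change of -0.80 (SE 0.13, interval -1.05 to -0.55, DESeq2 adjusted p 9.72e-09) per the authors' deposited table. Its linear ratio was 0.574 (0.482 to 0.684), and its log2 fold change lay at percentile 1.8 of all tested genes. Psmb8, which takes the place of Psmb5, was lower by less, at -0.34 (SE 0.13, interval -0.59 to -0.09, DESeq2 adjusted p 0.0281) with a mean of 448.1 in the authors' deposited table. Its call was lost at a threshold of 0.01. Psmb9, which takes the place of Psmb6, did not pass, at 0.04 (SE 0.16, interval -0.28 to 0.37, DESeq2 adjusted p 0.887) with a mean of 144.6 in the authors' deposited table. The difference between the 3 subunits was not tested, since the deposited values do not hold their covariance. The interval of Psmb9 does not overlap that of Psmb10 and overlaps that of Psmb8.

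Nlrc5, the transactivator, was estimated lower by about as much as Psmb8 but with a wider error. The authors' deposited table gives it a mean of 240.9 and a log2 fold change of -0.34 (SE 0.18, interval -0.70 to 0.01, DESeq2 adjusted p 0.144), which did not pass. The interval spans linear ratios of 0.617 to 1.01, so the data leave its direction unresolved.

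Of the 3 standard subunits that the immunoproteasome subunits replace, 1 was called lower. In the authors' deposited table Psmb5 was at -0.03 (SE 0.05) and Psmb6 at -0.05 (SE 0.05), neither passing (DESeq2 adjusted p 0.690 and 0.516). Psmb7, the counterpart of Psmb10, was called lower in the authors' deposited table, at -0.16 (SE 0.05, DESeq2 adjusted p 0.00228). Of the 14 genes of the standard proteasome core, 6 were called lower and 0 higher in the authors' deposited table, with a median of -0.12 and all estimates between -0.21 and 0.01. The lowest of these in the authors' deposited table were Psmb2 (-0.21), Psma7 (-0.20) and Psma5 (-0.19). The interferon-inducible activator of the proteasome, made of Psme1 and Psme2, was lower too. In the authors' deposited table Psme1 was at -0.31 (SE 0.07, DESeq2 adjusted p 3.44e-05) and Psme2 at -0.23 (SE 0.08, DESeq2 adjusted p 0.0129), the 2 calls among 9 activator and assembly genes. Beside these 2 of 9 and the 6 of 14 core genes, 15.4% of all tested genes were called lower.

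Genes that trim peptides and load them were called in both directions. Of 12 such genes, 2 were called higher and 3 lower in the authors' deposited table, with a median of -0.01. Of all tested genes, 15.3% were called higher and 15.4% lower. Erap1, the aminopeptidase that trims class I peptides in the endoplasmic reticulum, was higher by 0.82 (SE 0.11, DESeq2 adjusted p 3.31e-13) per the authors' deposited table, a larger estimate than that of any of the 10 members in this direction. Lower in the authors' deposited table were Thop1, a cytosolic oligopeptidase (-0.36, SE 0.08), and Tapbpl, a tapasin-related peptide editor (-0.28, SE 0.10). The general chaperones of the loading complex, named after their values were seen, did not pass in the authors' deposited table, with Calr at -0.11 (SE 0.05), Pdia3 at -0.01 (SE 0.04) and Canx at 0.03 (SE 0.05).

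Among 18 other class I heavy chains and class I-like genes, 14 had an adjusted p per the authors' deposited table, of which 1 was called higher and 3 lower (median 0.07). The 3 lower genes of the authors' deposited table were class I-like molecules with other tasks: Hfe, which regulates iron uptake (-0.97, SE 0.17), Fcgrt, the neonatal Fc receptor (-0.65, SE 0.10), and Cd1d1, which presents lipids (-0.44, SE 0.12). All 3 pair with B2m. The higher one was H2-Q6 (0.95, SE 0.22) at a mean of only 34.7 in the authors' deposited table. It was named after its value was seen, and like H2-Q7 (0.46, SE 0.22, DESeq2 adjusted p 0.110) it has near-identical copies, so its reads are uncertain. Class II genes present outside proteins and are mostly limited to immune cells. Of 9 genes of that pathway, 6 had an adjusted p per the authors' deposited table, with H2-DMb1 called lower (-0.54, SE 0.20) and H2-Eb1, named after its value was seen, called higher (0.82, SE 0.22) at a mean of 33.3.

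Calls among factors that act on class I promoters, or upstream of them, went in both directions. The counts given here stand beside 30.6% called of all tested genes, and no list was tested as a group. Rfx5, a subunit of the complex that holds Nlrc5 on the X box, was higher by 0.71 (SE 0.06, DESeq2 adjusted p 2.13e-26) per the authors' deposited table, the 1 call among the 8 genes of that list with an adjusted p. Ciita, the class II transactivator, had a mean of 2.66 and no adjusted p per the authors' deposited table. Irf1, which binds class I promoters, was at -0.08 (SE 0.10, DESeq2 adjusted p 0.623) per the authors' deposited table. Stat2, which acts in type I interferon signalling, was lower (-0.85, SE 0.09), while Relb (0.38, SE 0.11) and Stat3 (0.28, SE 0.06) were higher, the 3 calls among 13 interferon and NF-kB factors in the authors' deposited table. Of interferon receptors, Ifngr1 was higher (0.18, SE 0.06) and Ifnar1 lower (-0.17, SE 0.05) in the authors' deposited table. They were the 1 higher and 1 lower call among 8 tested ligand, receptor and kinase genes. The partner chains Ifngr2 (-0.003, SE 0.07) and Ifnar2 (-0.06, SE 0.07), named after their values were seen, did not pass in the authors' deposited table. The ligand gene Ifnb1 had a mean of 6.80, and Ifng was at 0 in the authors' deposited table. In a list of class I silencing and feedback genes, Usp18, which dampens type I interferon signalling, was lower (-0.92, SE 0.10), while Ptpn2 (0.26, SE 0.07) and Eed (0.18, SE 0.07) were higher in the authors' deposited table, 3 calls of 8.

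Other interferon-induced genes, with no part in class I presentation, had a median of -0.57 in the authors' deposited table, against 0.03 for the class I members. Of 15 such genes, 10 were called lower and 1 higher in the authors' deposited table. The lowest 3 in the authors' deposited table were Isg15, a ubiquitin-like modifier (-1.27, SE 0.12), Rtp4 (-1.08, SE 0.11) and Ifi44 (-0.92, SE 0.21), and the higher one, named after its value was seen, was Dtx3l (0.25, SE 0.07). Of the members, Psmb10 alone lay below the median of these genes. The lists were drawn up with results of these data known, and whether the class I members differ from them as a group was not tested. The plot of gene lists sets the members beside these genes.

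**Figure D2:**
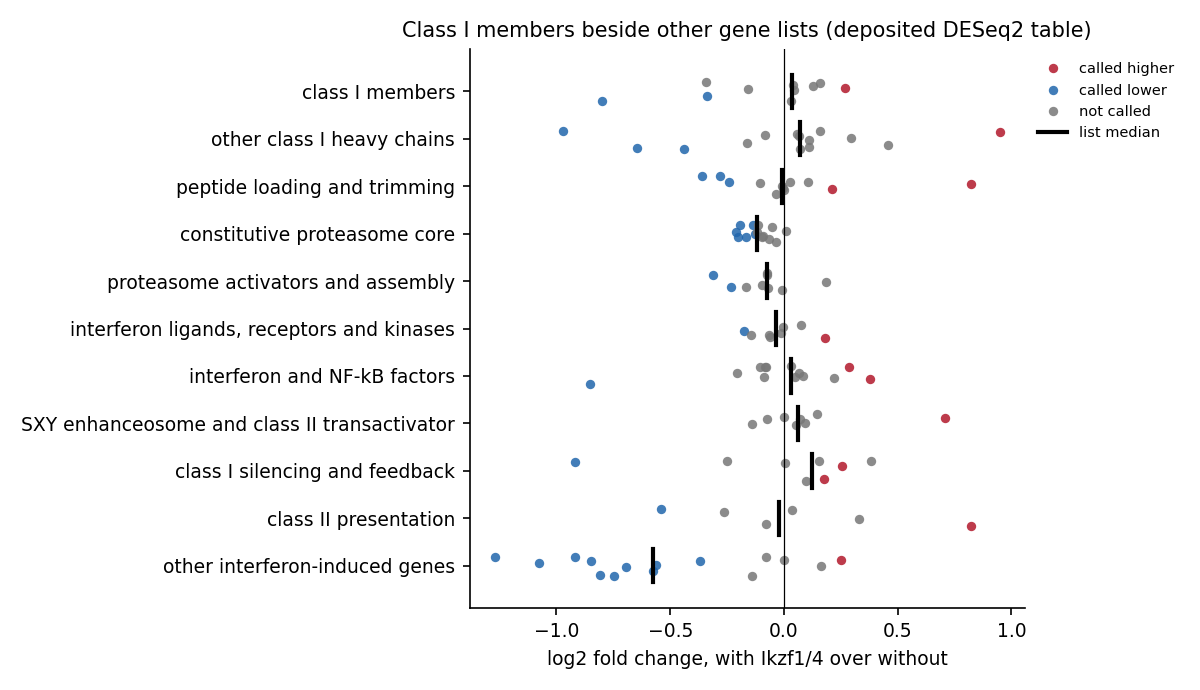
Log2 fold change (x axis, with Ikzf1/4 over without) of each gene with an adjusted p per the authors' deposited table, by list, with the list median as a bar and calls in colour. The class I members centre on 0.03, the standard proteasome core lies between -0.21 and 0.01, and other interferon-induced genes centre on -0.57.

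The labelled cell type was checked against marker genes of the authors' deposited table. Of 10 fibroblast markers, all had an adjusted p, and 8 were called lower and 0 higher (median -0.39) in the authors' deposited table. The lowest were Dcn, the matrix proteoglycan decorin (-1.77, SE 0.08), Col3a1, a collagen chain (-1.29, SE 0.06), and Vim, the filament protein vimentin (-0.59, SE 0.06), per the authors' deposited table. Of 9 macrophage and other leukocyte markers, 7 had an adjusted p and 0 were called, with log2 fold changes between -0.20 and 0.15 in the authors' deposited table. Csf1r, the macrophage growth factor receptor, had a mean of 2580 and Ptprc, the common leukocyte antigen, one of 1168 in the authors' deposited table, while the T cell gene Cd3e was at 0. Macrophage transcripts were therefore present in these cultures, and macrophages express the class I pathway too. No call was made among 5 endothelial markers, and 1 of 5 neuronal markers with an adjusted p was called lower, Tubb3 (-0.42, SE 0.10), in the authors' deposited table. The part of these cells in the members' values was not tested. In bulk libraries, fewer cells of a type and less RNA per cell cannot be told apart.

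Of the 10 members, 7 lie on chromosome 17 between Tapbp and H2-D1, a stretch in which Psmb9, Tap1, Psmb8 and Tap2 follow each other directly (order of genes in GRCm38.p6). Of the members there, Tapbp was called higher, Psmb8 was called lower and the other 5 were not called. Of the 64 other tested genes between the ends of this stretch, 8 were called higher and 6 lower in the authors' deposited table (21.9%), with a median of -0.02. The share called over all tested genes was 30.6%. The 3 members elsewhere are B2m on chromosome 2 and Psmb10 and Nlrc5 on chromosome 8.

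**Figure D3:**
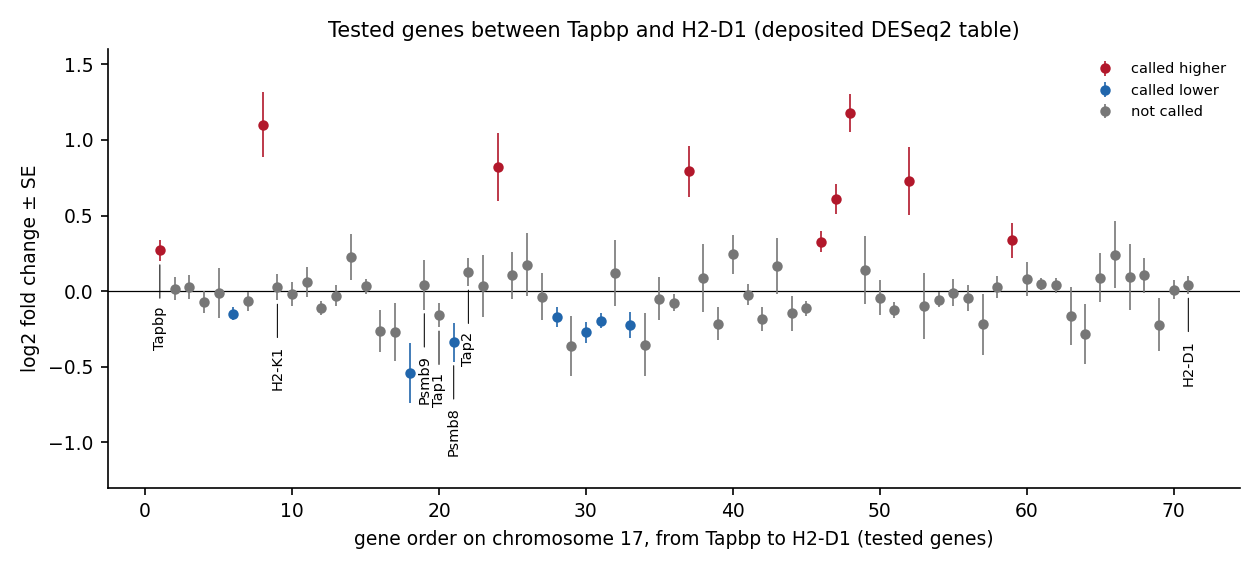
Log2 fold change (y axis, with Ikzf1/4 over without, bars ± SE) of the 71 tested genes from Tapbp to H2-D1 in the authors' deposited table, in their order on chromosome 17 (x axis). The members are named, and calls in both directions are scattered along the stretch.

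Chromatin at the members was examined in the retina, since the deposited fibroblast peaks are in another build than the gene positions used here and were not placed at these genes. The multiome experiment gave 1 single-cell ATAC library for a control with mCherry, from retina, labelled Muller glia (the support cells of the retina), of the line GLAST-CRE ERT2 ; RosaYFP and the strain C57BL/6, and 1 labelled Ikzf1/4. The labels of the latter repeat its title in place of tissue, line and strain, and both descriptions give tamoxifen at 14 days. The names in the file headers say 48 h instead, so the time point of these libraries is uncertain. The titles of both libraries name neither Brn2 nor Myt1l, so this is not the comparison made in fibroblasts. Ratios from these libraries are not to be read beside the fibroblast log2 fold changes as the same effect. With 1 library in each group there is no test of the condition, and all intervals cover counting error only. Cells numbered 1882 in the control, with a median of 6244 fragments, and 694 in the Ikzf1/4 library, with a median of 10977. They shared 3 barcodes.

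At the start sites of 7 of the 8 members the Ikzf1/4 library had fewer fragments for its depth than the control, and at Psmb10 it had more, counted in cells. The counting interval of the ratio left out 1 at B2m, H2-K1 and Psmb10. Within 1 kb of the B2m start site accessibility was 21.9 CPM (fragments scaled to the total in cells) in control cells (interval 19.5 to 24.5) and 13.4 in Ikzf1/4 cells (11.2 to 16.0), a ratio of 0.612 (0.492 to 0.756). At H2-K1 the values were 24.6 and 19.8 (ratio 0.806, 0.670 to 0.967), and at H2-D1 28.3 and 26.6 (ratio 0.938, 0.797 to 1.10). The window that Tap1 and Psmb9 largely share held 24.2 and 22.1 around the Tap1 start (ratio 0.911, 0.762 to 1.09). The ratio was 0.913 at Psmb8 (0.739 to 1.13) and 0.906 at Tapbp (0.694 to 1.18), both intervals including 1. Psmb10 was the 1 window with a ratio over 1, at 4.02 and 7.40 CPM (1.84, 1.27 to 2.67), from 55 and 69 fragments. Over all barcodes in place of cells it was 1.29 and B2m was at 0.752, both then short of 1.5-fold, while Tapbp (1.08), Psmb8 (1.03) and H2-D1 (1.03) were above 1.

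Over all promoter windows with at least 100 fragments in both libraries together, the median ratio was 1.11 (quartiles 0.982 and 1.24). Against that background 1 member was past 1.5-fold lower (B2m), where 2.23% of all promoters were, and 1 was past 1.5-fold higher (Psmb10), where 5.0% were. The 7 windows other than that of Psmb10, B2m included, had ratios of 0.612 to 0.938, below the lower quartile of all promoters, though those of Tap1 and Psmb9 overlap. Scaled to fragments in promoter windows in place of all fragments, these 7 were at 0.551 to 0.846 and Psmb10 at 1.66. Over the gene and 2 kb on both sides, the ratios were 0.834 for Tap2 (0.680 to 1.02) and 0.844 for Nlrc5 (0.739 to 0.962), the members with no start site in the table used. Tapbp was at 1.16 over that window (1.03 to 1.30), above 1 where its start site was below, and the median over all genes was 1.04. For Psmb10 that window gave 1.26 (1.07 to 1.49), with 315 fragments in control cells against 55 near its start site. The start window of Psmb10 was the least open of the 8 in control cells (percentile 58.0 of all promoters). Whether that start site is the one in use was not checked. The promoters of 5 macrophage and other leukocyte markers summed to 12.3 CPM in control cells and 9.22 in Ikzf1/4 cells, a ratio of 0.747 (0.569 to 0.974). The sums were also lower over 3 endothelial markers, at 15.2 and 11.4 CPM (ratio 0.748), and 5 fibroblast markers, at 25.5 and 20.9 CPM (ratio 0.820). The sum over 4 neuronal markers was higher, at 44.3 and 58.6 CPM (1.32, 1.18 to 1.49). Single promoters carried much of these sums, with Kdr giving 187 of the 208 endothelial and Vim 223 of the 349 fibroblast fragments in control cells. Map2 gave 402 of the 607 neuronal fragments there, with a ratio of 1.23 against 1.57 at Tubb3. Each sum holds only the markers of its list for which a start site was found. None of the lists is for Muller glia, the label of the control, and whether Vim marks fibroblasts in retina was not checked. The fibroblast sum is therefore not a measure of fibroblasts there. Other promoters went the opposite way from their sum, such as Fcer1g (1.51), Col1a2 (1.55), Emcn (1.47) and Dcx (0.367), each with a counting interval that includes 1. The leukocyte markers Ptprc (0.410, 0.197 to 0.791) and Itgam (0.184, 0.0205 to 0.781) were lower with intervals that leave out 1. Itgam rests on 16 control and 2 Ikzf1/4 fragments. The part of these cell types in the members' ratios was not tested, and the libraries differ in depth per cell and in their labels.

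**Figure D4:**
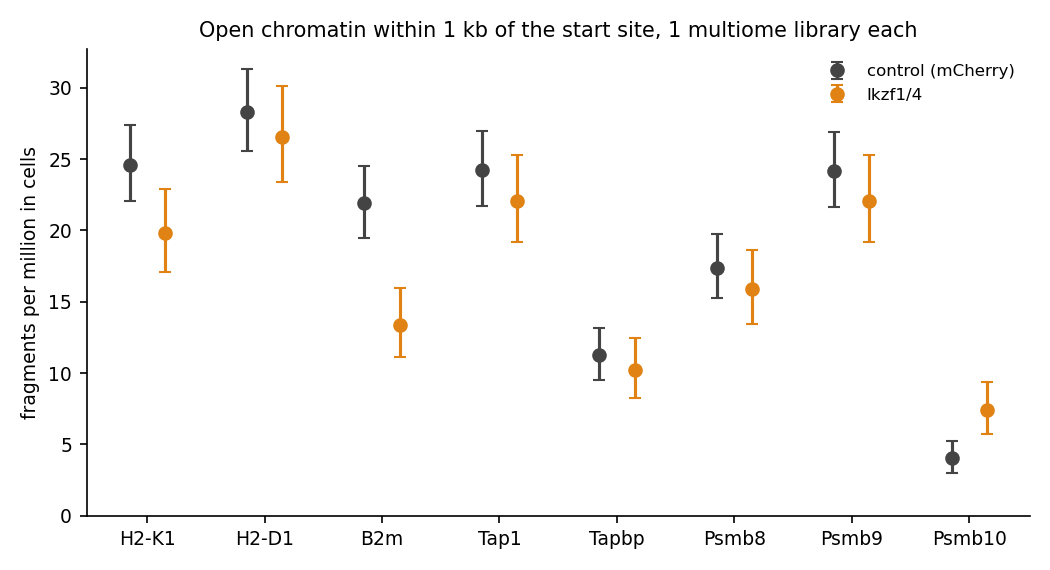
Fragments in cells, as CPM, (y axis) within 1 kb of the start site of 8 members (x axis) in the control and the Ikzf1/4 multiome library, with 95% counting intervals. B2m is lower in the Ikzf1/4 library (13.4 against 21.9), Psmb10 is higher (7.40 against 4.02), and the windows of Tap1 and Psmb9 overlap.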

How the data were processed

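Members and gene lists were chosen with earlier results of these data known. All 10 members are named. From each other pathway list up to 3 called genes with the largest change and a mean of at least 50 are named, plus Irf1, Rfx5, Ciita, Psmb5, Psmb6, Psmb7, Psme1 and Psme2 whatever their values. 1 further factor under that rule is not reported here. The interferon ligands, genes the text marks so, H2-Q7 and single cell type markers were named after their values were seen. The RNA-seq files hold expected counts of transcripts made with salmon from poly(A)-selected RNA per the labels, of which only library totals and correlations were computed. The authors deposited a gene comparison made with DESeq2, per the labels: a mean normalised signal, a log2 fold change with its SE, a Wald score, a p-value and its adjusted form. Its adjusted p is the Benjamini-Hochberg value over 16757 genes, and calls use 0.05. No source used here states whether fold changes were shrunk. The median SE was 0.049 at means under 2 and 0.172 at 100 to 200, a pattern that shrinkage can give. The tests planned on gene sums, transcripts and fibroblast peaks were not run, because transcripts were not paired with genes and no gene positions of the peaks' build (mm9 by their chromosome names) were used. The submitters' processing notes name mm9 and mm10.

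Multiome fragments were deposited with counts of read pairs, from cellranger-arc 2.0.1 and mm10 per the file headers. Cells were barcodes with at least 3000 fragments, below percentile 99, and an insertion density within 500 bp of start sites at least 4 times that at 1500 to 2000 bp. No doublet caller was run. Fragments overlapping windows were counted and scaled to CPM over cells (pandas 2.3.3), with exact binomial intervals for ratios and Poisson intervals for levels (scipy 1.17.1). The multiome comparison and its alternatives were added after the data were seen. The window counter and the adjustment were tested on simulated data. Promoters were aligned with Biopython 1.88.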

Additional observations from a re-analysis of the deposited data

How the results depend on the processing

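Of the members called in the authors' deposited table, 1 higher and 2 lower, a DESeq2 adjusted p under 0.01 left 1 lower (Psmb10), as did the Benjamini-Yekutieli adjustment. A log2 fold change over 1 in size left 0 higher and 0 lower. Adjusting over genes with a mean of at least 50 gave 2 higher (Tapbp and B2m). For single members, 34 of 40 calls under these alternatives were as in the deposited adjustment, 5 were lost and 1 was gained. Of the multiome promoters past 1.5-fold, counting all barcodes left 0 higher and 0 lower, and windows of 5 kb left 0 higher. Cells with at least 10000 fragments gave 2 lower, H2-K1 (0.639) and B2m (0.490), with Tapbp at 0.673. B2m stayed below 1 under all 5 alternatives and Psmb10 above 1, while over all barcodes Tapbp (1.08), Psmb8 (1.03) and H2-D1 (1.03) were above 1, as were Tapbp within 5 kb (1.12) and Tap1 and Psmb9 in the deeper cells (1.08). The multiome alternatives were chosen after seeing the data. No paired analysis was possible because the members' values come from the deposited comparison, which holds no values per library. For the same reasons no replicate was left out in turn. Alternatives for gene sums, transcripts and fibroblast peaks were not run. Counts limit the multiome, most at Psmb10, and intervals cover counting error only.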

Other observations

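Between Tapbp and H2-D1 on chromosome 17, the called genes of the authors' deposited table included some outside the class I list, and they are named here after their values were seen. Hspa1a, an inducible chaperone of the HSP70 family, was higher by 1.18 (SE 0.13, DESeq2 adjusted p 3.92e-19) and its neighbour Hspa1b by 0.61 (SE 0.10, DESeq2 adjusted p 2.57e-08) per the authors' deposited table. These genes are near-identical copies, so the share of reads of each is uncertain. H2-K2, annotated as a transcribed class I pseudogene, was higher by 1.10 (SE 0.22, DESeq2 adjusted p 4.05e-06) at a mean of 45.1 in the authors' deposited table. It resembles the heavy chains in sequence, so its reads are uncertain, and H2-K1 was at 0.03 in the authors' deposited table.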
